A study of Mus musculus with 6 samples.

Results

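The dedifferentiated and mesenchymal melanoma state was followed in B16F10.9 cells through 10 genes: the receptors Ngfr and Axl, the transcription factors Sox9, Snai2, Zeb1 and Zeb2, the structural genes Fn1 and Vim, and the cadherins Cdh1 and Cdh2. They were picked by gene symbol from the full deposited table of 39179 genes, and all 10 were found and had been tested by the authors. B16F10.9 is a pigmented melanoma line from the C57BL/6 mouse strain. The study compared 3 libraries of untreated cells (agent none) with 3 libraries of cells whose medium held recombinant mouse IFN-gamma for 24 h, a cytokine that T and NK cells release. The label gives its dose as 50 µg/ml, well above what is usual in culture. The comparison asks how these genes stood in treated against untreated cells of 1 line grown in culture, without a host or other cells added.

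Melanoma cells can leave the pigmented, melanocyte-like state and take on features of the neural crest from which melanocytes derive, or of mesenchymal cells. In such states the neurotrophin receptor Ngfr and the receptor kinase Axl are raised, and both have been linked to resistance to targeted drugs and to T cells. Snai2 and Zeb2 are made by normal melanocytes as well as by mesenchymal cells, whereas Zeb1 and Sox9 mark the loss of melanocyte identity. In epithelia the Snail and Zeb factors repress Cdh1, which encodes E-cadherin, and cells that pass to the mesenchymal state exchange it for N-cadherin (Cdh2), vimentin (Vim) and fibronectin (Fn1).

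Levels are in FPKM, a count of sequenced fragments corrected for transcript length and library size. The authors' deposited table holds 1 FPKM value per gene and group, so every level below is the authors' group value with no SD, and read depth is unknown. Cells were seeded in triplicates, but nothing says that the cultures were independent, and the spread behind the q-values may be technical. Rose and fell are used where the authors' deposited table gives q under 0.05. The described genes and all gene lists were chosen with earlier results of these data known. Genes marked post hoc were in addition picked out of their lists once their values were known. The labels held up against the data, but since the lists were chosen in this way, the check is not independent of the data. All 8 genes of an IFN-gamma response list rose, and all 8 melanocyte genes stood above 1 FPKM in both groups, with a summed level of 11733 FPKM in untreated and 15043 FPKM in treated cells. Of 12 leukocyte markers 11 stood under 1 FPKM in both groups, with a summed level of 1.97 and 1.49 FPKM. Of 12 fibroblast markers 8 stood under 1 FPKM in both groups, with a summed level of 8.48 and 10.6 FPKM.

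After IFN-gamma 6 of the 10 genes rose, 0 fell and 4 were not called by the authors' test (Cuffdiff). The 6 were Ngfr, Axl, Snai2, Zeb2, Fn1 and Vim, and the 4 were Sox9, Zeb1, Cdh1 and Cdh2. Over all 17021 tested genes 23.4% rose, 20.9% fell and 44.4% were called in either direction. Among the 12800 tested genes that reach 1 FPKM in either group 53.2% were called, 3574 of them higher and 3234 lower. Calls in either direction made up 60% of the 10 genes. Since the 10 genes were chosen with earlier results of these data known, their shares beside those of all tested genes are descriptions only. At an unadjusted p under 0.05 in the authors' deposited table, 7 of the 10 were higher and 1, Cdh1, was lower. The median log2 ratio of IFN-gamma over untreated was 1.23 over the 10 genes and 0.04 over all tested genes. A rise of at least 2-fold was seen in 5 of the 10, with Zeb2 just short of it at 1.998-fold, and in 9.69% of all tested genes. The size of the rises was uneven, from 1.998-fold for Zeb2 to 24.0-fold for Fn1 and 27.9-fold for Ngfr, and the levels on which they rest spanned several orders of magnitude.

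**Figure D1:**
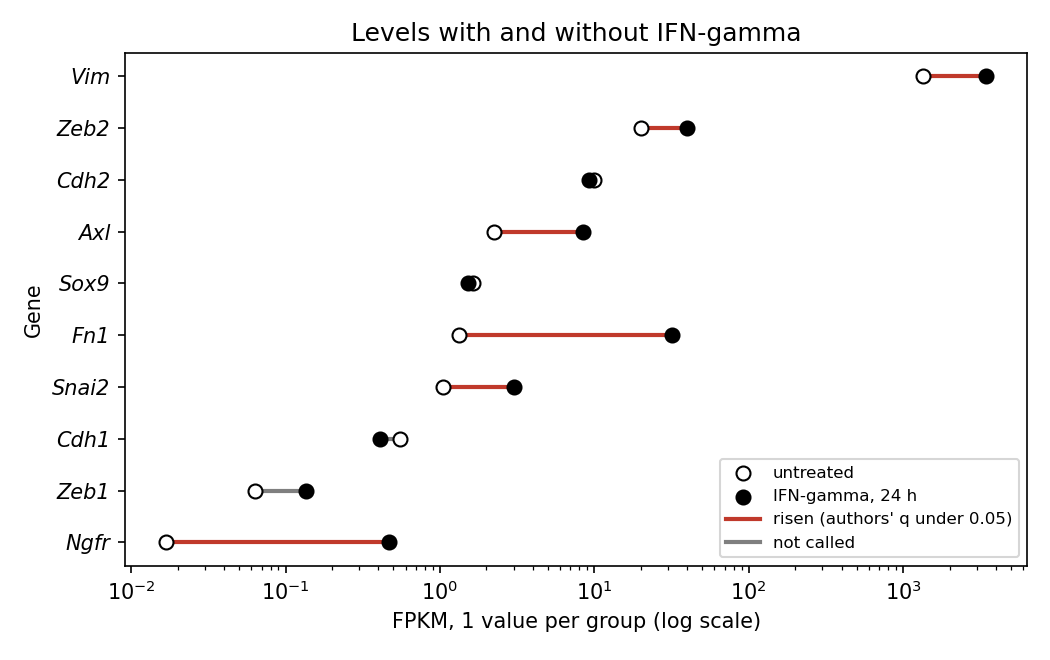
Level of each gene in FPKM (horizontal, log scale) in untreated cells (open circles) and after 24 h of IFN-gamma (filled circles), 1 authors' value per group without an error; line colour marks genes that rose at the authors' q under 0.05 (red) or were not called (grey). Fn1 passed Sox9, Axl, Cdh2 and nearly reached Zeb2, while Vim stood above the other 9 genes in both groups and Ngfr stayed under 1 FPKM.

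In untreated cells the levels fell into a clear order. Vim stood at 1345 FPKM, followed by Zeb2 at 19.97 FPKM and Cdh2 at 9.95 FPKM. Axl (2.24 FPKM), Sox9 (1.64 FPKM), Fn1 (1.34 FPKM) and Snai2 (1.05 FPKM) formed a low middle group, and Cdh1 (0.553 FPKM), Zeb1 (0.0635 FPKM) and Ngfr (0.0168 FPKM) stood under 1 FPKM. After IFN-gamma the order was Vim, Zeb2, Fn1, Cdh2, Axl, Snai2, Sox9, Ngfr, Cdh1 and Zeb1. Without values per library it cannot be said which neighbours in either order differ beyond their spread. In bulk RNA a higher level in each cell and a larger share of cells that express the gene cannot be told apart.

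RefSeq promoter sequences (build GRCm38.p6, as in the table at hand) were found for 4 of the 6 genes that rose, Ngfr, Axl, Zeb2 and Vim. They are shown because these genes rose together under IFN-gamma. The 250 bases before the listed start were searched on both strands for the GAS element of IFN-gamma-induced genes (TTCNNNGAA), the core of the interferon-stimulated response element (GAAANNGAA), the AP-1 site (TGANTCA), the E-box preferred by Snail and Zeb factors (CAGGTG), any E-box (CANNTG, which includes the former) and the TATA box (TATAAA). Matches are in capitals, and bases that the GENCODE annotation puts in an exon are left out, apart from a stretch of 30 bases for Vim.
Ngfr, minus strand, chr11:95587736-95587948: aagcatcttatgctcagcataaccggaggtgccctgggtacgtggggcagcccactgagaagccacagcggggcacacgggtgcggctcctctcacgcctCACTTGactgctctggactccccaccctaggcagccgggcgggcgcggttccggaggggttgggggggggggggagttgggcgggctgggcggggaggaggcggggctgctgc
Axl, minus strand, chr7:25788734-25788983: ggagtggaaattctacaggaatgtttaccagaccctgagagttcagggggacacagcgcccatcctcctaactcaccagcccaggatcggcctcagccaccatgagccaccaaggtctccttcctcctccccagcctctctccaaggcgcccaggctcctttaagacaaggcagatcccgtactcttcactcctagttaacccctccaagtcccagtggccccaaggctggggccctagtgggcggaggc
Zeb2, minus strand, chr2:45117443-45117692: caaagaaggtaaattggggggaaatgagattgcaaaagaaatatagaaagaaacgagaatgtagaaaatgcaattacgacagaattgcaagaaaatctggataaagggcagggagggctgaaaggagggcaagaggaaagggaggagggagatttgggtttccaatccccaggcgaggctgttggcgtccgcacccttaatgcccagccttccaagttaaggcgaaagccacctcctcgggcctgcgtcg
Vim, plus strand, chr2:13574267-13574296: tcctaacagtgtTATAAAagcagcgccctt
The Ngfr window held 2 E-boxes, which begin 150 and 25 bases before the start, the latter in exonic bases not shown. The Vim window held a TATA box that begins 32 bases before the start. Neither an AP-1 site nor a CAGGTG E-box nor either interferon element was matched in any of the 4 windows, and the Axl and Zeb2 windows held no match at all. Of 32851 mouse promoter windows of the same length, 7.02% hold the GAS letters, 7.13% the response element core, 6.75% the AP-1 letters, 17.2% CAGGTG, 66.2% any E-box and 12.4% the TATA letters. The GC content was 70.4% for Ngfr, 60.0% for Axl, 49.6% for Zeb2 and 58.4% for Vim, against a median of 52.4% over all windows. These matches describe the letters of a short window and show no binding.

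Ngfr encodes the low-affinity neurotrophin receptor, also called CD271 or p75NTR, a marker of neural crest cells. Its level was 0.0168 FPKM without and 0.467 FPKM with IFN-gamma, a log2 ratio of 4.80 (q = 0.00731 in the authors' deposited table). The ratio is large because the untreated value is close to 0. With a pseudocount of 1 FPKM the log2 ratio was 0.53, and Ngfr ranked 13438th of 17021 tested genes by level after treatment. It was the only one of the 6 risen genes left out of the authors' shorter sheet of significant genes, which holds the other 5. Ngfr lies on chromosome 11 (95568818 to 95587735, minus strand, GRCm38), and no other annotated gene overlaps it.

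Many partner genes of Ngfr were near 0, while those for its intracellular partners were well expressed. Of 17 partner genes 9 were not tested, among them the ligand gene Ntf3, listed at 0 in both groups, and the co-receptor gene Ntrk2, under 0.05 FPKM in both. Of the 8 tested 3 rose (against 23.4% of all tested genes), 2 fell (against 20.9%) and 3 were not called. The median log2 ratio of the 8 was 0.10. The ligand gene Bdnf (post hoc) rose from 0.908 to 1.25 FPKM. The co-receptor gene Sort1 (sortilin, post hoc) rose from 44.9 to 60.3 FPKM, a log2 ratio of 0.42 that was -0.04 relative to genes of like transcript length. Ngfrap1 and Maged1, whose products bind the intracellular part of the receptor, fell, the former from 114 to 49.4 FPKM and the latter from 176 to 105 FPKM. Traf6, a signalling adaptor of several receptors, rose from 6.31 to 9.72 FPKM. Its log2 ratio of 0.62 was 0.22 relative to genes of like transcript length. Arhgdia, which Ngfr displaces from RhoA, was not called at 368 and 447 FPKM, nor was the ligand gene Ntf5 at 0.721 and 0.682 FPKM.

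Axl encodes a receptor tyrosine kinase of the TAM family, whose members bind dying cells through the ligands Gas6 or protein S, Gas6 in the case of Axl. It rose 3.76-fold, from 2.24 to 8.43 FPKM (log2 ratio 1.91, q = 0.000187 in the authors' deposited table), and maps to chromosome 7 (25757273 to 25788705, minus strand, GRCm38). The other receptors of the family did not rise with it. Tyro3 fell from 12.3 to 4.79 FPKM, and Mertk (post hoc) was not called at 0.464 and 0.488 FPKM. The level of Axl was thus 0.182 times that of Tyro3 in untreated cells and 1.76 times that of Tyro3 after IFN-gamma, both per transcript length. Of the ligands, Pros1, which encodes protein S, rose 2.62 on the log2 scale from 9.40 to 57.6 FPKM, whereas Gas6 was not tested, at 0.0158 and 0.0178 FPKM. Lgals3, reported as a further TAM ligand, and the adaptor gene Grb2 were not called, at 0.760 and 1.09 FPKM and at 74.3 and 87.8 FPKM. Outside Axl 2 of the 7 tested genes rose (against 23.4% of all tested genes), 1 fell (against 20.9%) and 4 were not called. The second rise was in Pik3r1 (post hoc), a subunit of PI3 kinase, at 4.32 and 6.09 FPKM. Its log2 ratio of 0.50 was 0.03 relative to genes of like transcript length.

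Among the transcription factors, Snai2 (Slug), a zinc finger repressor of the Snail family that neural crest cells and melanocytes need, rose 2.89-fold. Its level went from 1.05 to 3.04 FPKM (log2 ratio 1.53, q = 0.000187 in the authors' deposited table). Snai2 lies on chromosome 16 (14705852 to 14709385, plus strand, GRCm38). Its relatives were close to 0: Snai1 was listed at 0.0249 and 0.0346 FPKM and Snai3 at 0.0056 and 0.0142 FPKM, and neither was tested.

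Zeb2, a zinc finger and homeodomain repressor that melanocytes use in differentiation, rose 1.998-fold from 19.97 to 39.9 FPKM (log2 ratio 1.00, q = 0.000187 in the authors' deposited table). Relative to genes of like transcript length the difference was 1.29-fold. Zeb1, its close relative and a driver of the mesenchymal state, was not called at 0.0635 and 0.135 FPKM (log2 ratio 1.09, p = 0.0263 and q = 0.0580 in the authors' deposited table). The level of Zeb2 was 314 times that of Zeb1 in untreated cells and 295 times that of Zeb1 after treatment. Both genes overlap others on the opposite strand, and the library kit does not mark strand. Zeb2 shares 3.27% of its exon bases with the antisense gene Zeb2os, which was not called at 6.29 and 6.11 FPKM, and Zeb1 shares 1.93% with Gm10125, which rose from 0.600 to 1.13 FPKM. Zeb2 lies on chromosome 2 (44983632 to 45117395, minus strand) and Zeb1 on chromosome 18 (5591860 to 5775467, plus strand, GRCm38).

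Sox9, a SoxE factor that acts against Sox10 in melanoma, was not called. It stood at 1.64 FPKM without and 1.51 FPKM with IFN-gamma (log2 ratio -0.12, q = 0.520 in the authors' deposited table), and maps to chromosome 11 (112782224 to 112787760, plus strand, GRCm38). Sox10, the SoxE factor of melanocytes, rose, so that its level was 68.0 times that of Sox9 in untreated cells and 129 times that of Sox9 after IFN-gamma. Outside Sox9 the list of neural crest factors held 10 tested genes, of which 7 rose, 3 were not called and 0 fell. At an unadjusted p under 0.05 (Cuffdiff) the counts were 7 higher and 0 lower. Their median log2 ratio was 0.56. Over all tested genes 23.4% rose and 20.9% fell. Sox10 and Mitf are counted here and again in the melanocyte list. The widest rises were those of Sox6 (3.51 to 10.97 FPKM), Id3 (38.5 to 104 FPKM) and Id2 (127 to 231 FPKM). Id2 and Id3 are inhibitors of bHLH factors. Sox5 (5.48 and 4.62 FPKM) and Id1 (7.11 and 6.29 FPKM) were not called. Some markers of early neural crest, Foxd3, Sox2, Msx1, Msx2 and Tfap2b, stood under 0.05 FPKM in both groups and were not tested. Others of the list were well expressed and rose, Pax3 from 22.4 to 30.1 FPKM and Tfap2a from 28.7 to 46.2 FPKM (both post hoc).

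The wider list of factors that drive the epithelial to mesenchymal transition (EMT) had 4 tested genes besides Snai2, Zeb1 and Zeb2. Of these 3 rose (against 23.4% of all tested genes) and 1 fell (against 20.9%), with a median log2 ratio of 0.80. With Snai2, Zeb1 and Zeb2 the median over the list was 1.00, and 0.55 relative to genes of like transcript length. Tcf4, which encodes the bHLH factor E2-2, rose from 5.20 to 12.8 FPKM, and its relative Tcf3, which encodes E12 and E47, fell from 40.1 to 19.2 FPKM. Foxc1 (3.84 to 6.71 FPKM) and Klf8 (0.498 to 0.861 FPKM), both post hoc, also rose. The remaining 8 genes of the list, with Twist1, Twist2, Prrx1 and Snai1 among them, were not tested and stood under 0.1 FPKM in both groups. The list of corepressors that Snail and Zeb proteins recruit held 14 tested genes. It includes Ep300, an acetyltransferase gene usually counted as a coactivator. Of the 14 genes 3 rose, 6 fell and 5 were not called, with a median log2 ratio of -0.12. Of all tested genes 23.4% rose and 20.9% fell. With a change of at least 2-fold the counts were 1 higher and 0 lower. The 1 was Ep300, with a log2 ratio of 1.27, or 0.64 relative to genes of like transcript length. Hdac1 fell from 74.7 to 41.0 FPKM and Wtip, a LIM protein that binds Snail factors, from 36.9 to 19.4 FPKM, while the acetyltransferase gene Ep300 rose from 4.13 to 9.98 FPKM. Suz12, a Polycomb subunit, and the demethylase gene Kdm1a were not called, at 55.2 and 59.4 FPKM and at 28.1 and 37.3 FPKM.

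Fn1, which encodes the matrix glycoprotein fibronectin, rose 24.0-fold from 1.34 to 32.1 FPKM (log2 ratio 4.59, q = 0.000187 in the authors' deposited table). Relative to genes of like transcript length the difference was 15.5-fold. It moved from rank 11576 to rank 3311 by level among the 17021 tested genes. The test score of 20.2 in the authors' deposited table was the highest of the 10 genes, the next being 5.79 for Snai2. Fn1 lies on chromosome 1 (71585520 to 71653200, minus strand, GRCm38). Fn1 is overlapped on the opposite strand by Apol7d, which the annotation classes as an antisense gene. Apol7d, named after the interferon-inducible Apol family, was listed at 0.788 and 10.97 FPKM and not called (q = 0.112 in the authors' deposited table). The exons of the 2 genes share 292 bases, 2.50% of the exon bases of Fn1, and fragments from these bases cannot be assigned by strand.

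Fibronectin receptors did not follow Fn1 as a group. Outside Fn1, 5 of the 18 tested genes of the receptor and matrix list rose, 5 fell and 8 were not called. Their median log2 ratio was 0.22. The shares over all tested genes were 23.4% risen and 20.9% fallen. Itga5, the alpha chain of the main fibronectin receptor, rose from 6.03 to 13.5 FPKM, whereas Itga4, the alpha chain of another, fell from 3.06 to 2.23 FPKM and Itgb3 from 3.27 to 1.79 FPKM (all 3 post hoc). Itgb1, the beta chain that pairs with Itga5, was not called at 178 and 202 FPKM. Thbs1, the matrix protein thrombospondin 1, showed a rise close in size to that of Fn1, from 0.658 to 14.5 FPKM (log2 ratio 4.47). The fibrillin 1 gene Fbn1 (post hoc) rose from 0.0097 to 0.423 FPKM. The urokinase receptor gene Plaur fell from 13.0 to 5.18 FPKM, and the matrix protease gene Mmp14 was not called at 50.5 and 43.2 FPKM. Tnc, Lox, Loxl2, Plau and Tgfbi were not tested and stood under 0.05 FPKM in both groups. Of the 12 fibroblast markers 8 were tested, of which 3 rose, 2 fell and 3 were not called. Lum, which encodes the matrix proteoglycan lumican, rose from 0.0664 to 1.29 FPKM, Pdgfrb from 1.02 to 1.31 FPKM and Fap (post hoc) from 0.0680 to 0.307 FPKM. Col1a2 (0.709 to 0.131 FPKM) and Pdgfra (0.149 to 0.0175 FPKM), both post hoc, fell. Col5a1 (3.64 and 4.26 FPKM) and Postn (2.57 and 3.07 FPKM) were not called, and Col1a1, Col3a1 and Dcn (all post hoc) stood under 1 FPKM in both groups. The part of fibroblast markers in the rises of Fn1 and Vim was not tested.

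Vim, the intermediate filament gene of mesenchymal cells and melanocytes, rose 2.58-fold from 1345 to 3469.8 FPKM (log2 ratio 1.37, q = 0.000187 in the authors' deposited table). It went from the 91st to the 15th highest FPKM of all tested genes. The gain of 2125 FPKM was by far the largest of the 10 genes on the linear scale, the next being 30.8 FPKM for Fn1. Vim lies on chromosome 2 (13573927 to 13582826, plus strand, GRCm38), and no other annotated gene overlaps it. Of the other 9 tested intermediate filament genes and linkers 4 rose, 2 fell and 3 were not called, with a median log2 ratio of 0.64. Over all tested genes 23.4% rose and 20.9% fell. With Vim the median of the list was 0.87, and 0.35 relative to genes of like transcript length. Prph, which encodes the neuronal filament protein peripherin, rose from 2.29 to 48.6 FPKM and the linker gene Plec from 3.45 to 11.8 FPKM. The nuclear lamin genes Lmnb1 (30.7 to 13.1 FPKM) and Lmnb2 (19.8 to 8.76 FPKM), both post hoc, fell. Lmna was not called at 268 and 245 FPKM, nor was the glial filament gene Gfap at 5.83 and 19.8 FPKM. The epithelial keratin genes Krt7, Krt8, Krt18 and Krt19 stood under 0.1 FPKM in both groups and were not tested.

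The cadherins showed no exchange that passed the test. Cdh1 stood at 0.553 FPKM without and 0.410 FPKM with IFN-gamma (log2 ratio -0.43, p = 0.0323 and q = 0.0694 in the authors' deposited table). Cdh2 stood at 9.95 and 9.21 FPKM (log2 ratio -0.11, q = 0.510 in the authors' deposited table). The level of Cdh2 was already 17.98 times that of Cdh1 in untreated cells, and 22.4 times after treatment. Cdh1 lies on chromosome 8 (106603351 to 106670246, plus strand) and Cdh2 on chromosome 18 (16588877 to 16809246, minus strand, GRCm38). Of the other 9 tested cadherins and catenins 6 rose (against 23.4% of all tested genes), 3 were not called and 0 fell (against 20.9%). At an unadjusted p under 0.05 (Cuffdiff) the counts were again 6 higher and 0 lower. Cdh13, a cadherin without a cytoplasmic tail, rose from 5.65 to 11.5 FPKM, Ctnnd1 (p120 catenin), which stabilises cadherins at the membrane, from 38.5 to 82.3 FPKM, and the actin linker gene Vcl from 3.65 to 6.95 FPKM. Ctnnb1, the beta-catenin gene, was not called at 399 and 322 FPKM. The median log2 ratio of the list with Cdh1 and Cdh2 was 0.53, and -0.11 relative to genes of like transcript length, and the ratio of Mllt4 (post hoc), which rose, went from 0.53 to -0.11 in the same step.

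The other epithelial genes that Snail and Zeb factors repress were largely silent before and after treatment. Of 24 genes 21 stood under 1 FPKM in both groups. Besides Cdh1 10 were tested, of which 2 rose (against 23.4% of all tested genes), 8 were not called and 0 fell (against 20.9%). At an unadjusted p under 0.05 (Cuffdiff) they numbered 3 higher and 0 lower. The tight junction genes Tjp1 (6.01 to 11.2 FPKM) and Ocln (post hoc, 0.0598 to 0.724 FPKM) rose. Tjp3 was not called at 1.06 and 1.38 FPKM.

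**Figure D2:**
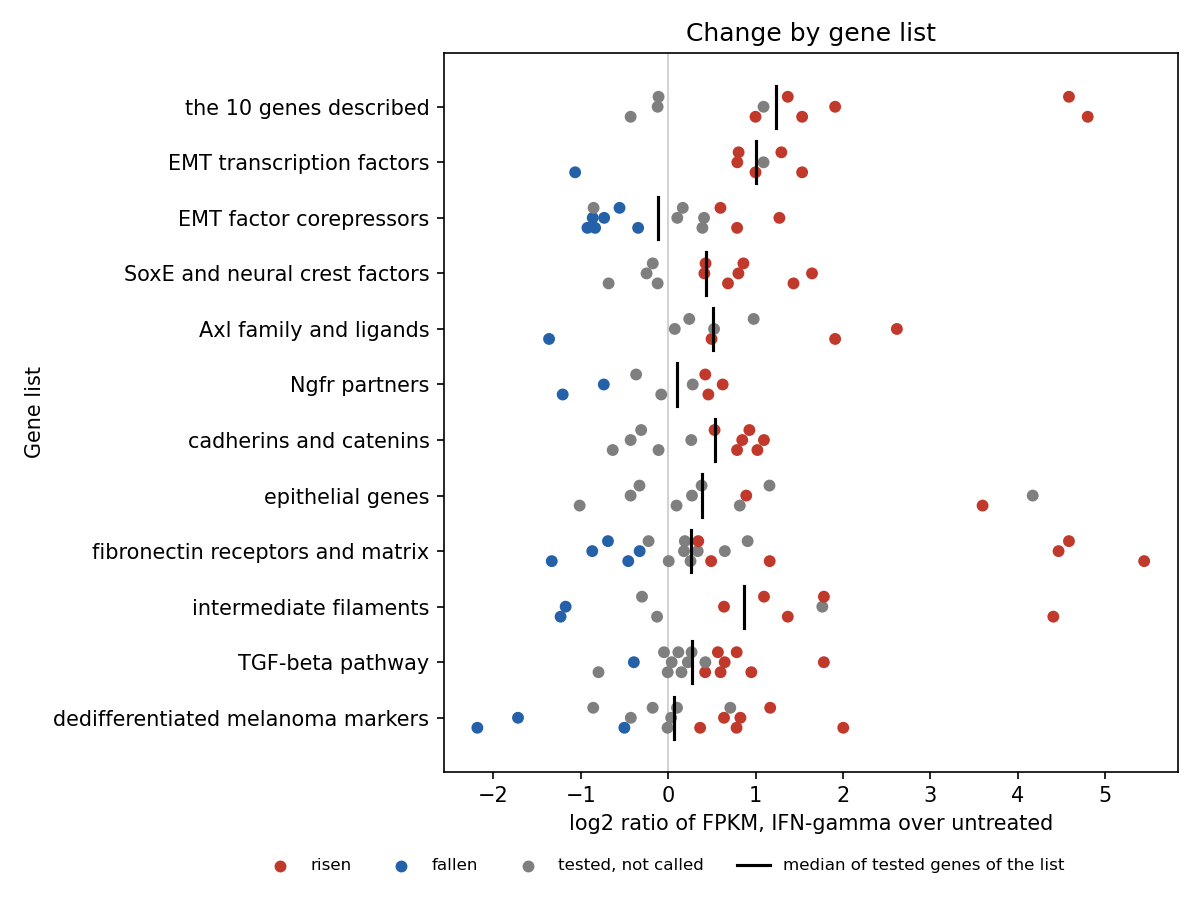
Log2 ratio of FPKM (IFN-gamma over untreated, horizontal) of each tested gene in 12 gene lists, coloured by the authors' call, with a black bar at the list median and points shifted vertically for legibility; members of the 10 described genes also appear in the lists they belong to. The bars of the 10 genes (1.23) and of the EMT factors (1.00) stand furthest right. Relative to genes of like transcript length their medians are 1.04 and 0.55. The bar of the corepressor list (-0.12), which also holds the coactivator gene Ep300, is left of 0.

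Transcript length moved with the log2 ratios in these data and touches the long genes of the set. Over 20 bins of tested genes by their longest annotated transcript, the median log2 ratio ran from -0.56 in the second shortest bin to 0.64 in the longest. The bin of the longest genes holds Zeb2 (9124 nt) and Fn1 (8315 nt). Relative to genes of like length the log2 ratio of Zeb2 was 0.36 in place of 1.00, and that of Fn1 was 3.95 in place of 4.59. The shorter genes changed little or moved up: Snai2 (2021 nt) stood at 1.70, Vim (2926 nt) at 1.39, Axl (4265 nt) at 1.79 and Ngfr (3446 nt) at 4.72. For the genes without a call the values were 0.69 for Zeb1, -0.24 for Sox9, -0.35 for Cdh2 and -0.65 for Cdh1. All 10 genes kept the sign of their ratio. The median over the 10 genes was 1.04 relative to genes of like length. The part of transcript length in the authors' calls was not tested.

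**Figure D3:**
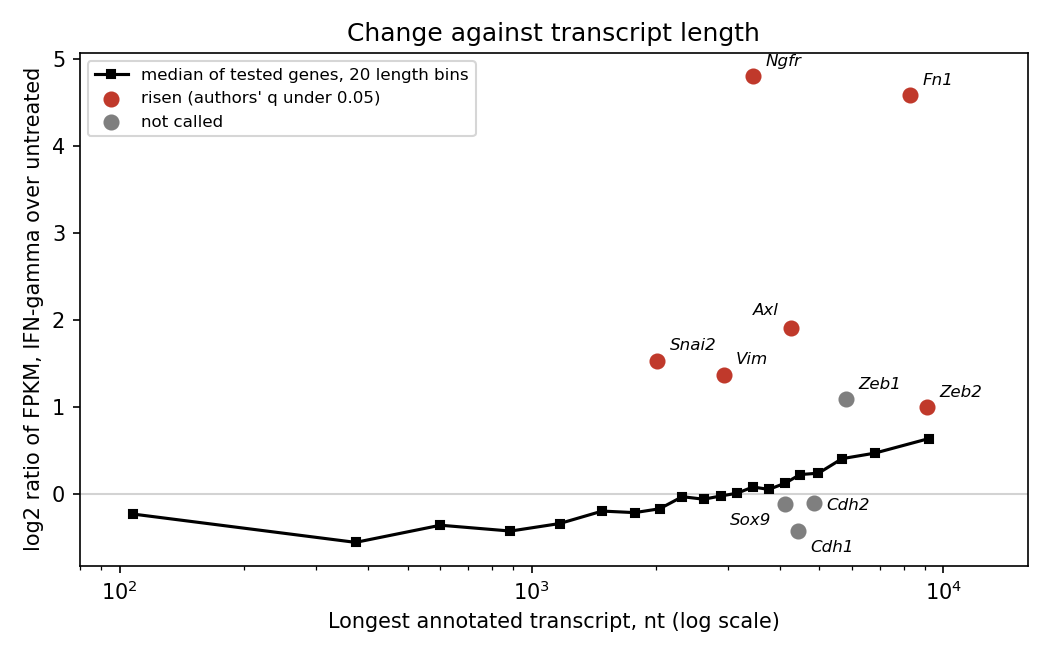
Log2 ratio of FPKM (IFN-gamma over untreated, vertical) against the length of the longest annotated transcript (nt, log scale) for the 10 genes, red where risen at the authors' q under 0.05 and grey where not called; black squares are medians of all tested genes in 20 length bins. Zeb2, at 1.00, lies 0.36 above the median of genes of its length, while Fn1 and Ngfr lie 3.95 and 4.72 above theirs.

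TGF-beta induces Snail and Zeb factors, fibronectin and vimentin in many cell types. Of 17 tested genes of its pathway 7 rose (against 23.4% of all tested genes), 1 fell (against 20.9%) and 9 were not called. The median log2 ratio of the 17 was 0.27, or -0.08 relative to genes of like transcript length. Smurf1, a ubiquitin ligase that limits the pathway, rose from 8.96 to 30.8 FPKM, Tgfbr2, the type II receptor, from 4.94 to 9.55 FPKM, and the Smad corepressor gene Ski from 11.9 to 20.4 FPKM. The decoy receptor gene Bambi (post hoc) fell from 4.06 to 3.09 FPKM. Smad4 (20.4 and 27.3 FPKM) and Smurf2 (16.7 and 18.1 FPKM) were not called.

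Further markers of undifferentiated melanoma went in different directions. Of 23 markers outside the 10 genes 7 were not tested. Egfr, Nt5e, Wnt5a and Ror2 were among these, all under 0.05 FPKM in both groups. Of 16 tested 6 rose (against 23.4% of all tested genes), 3 fell (against 20.9%) and 7 were not called. The median log2 ratio of the 16 was 0.07. Jun, an AP-1 subunit, rose from 12.3 to 49.5 FPKM. The falls included those of the water channel gene Aqp1 (2.08 to 0.459 FPKM) and of S100a4 (562 to 171 FPKM), a calcium-binding protein gene linked to cell migration. Tnfrsf12a and L1cam were not called, at 112 and 98.7 FPKM and at 13.5 and 22.02 FPKM.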

How the data were processed

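Illumina TruSeq RNA V2 libraries, 3 of untreated and 3 of IFN-gamma-treated cells, were made per the labels' protocols, with a kit that does not mark strand. TopHat2 2.0.11, Cufflinks 2.2.1 and Cuffdiff are named for GRCm38, per the submitters' processing notes. No source used here gives their settings or the annotation release. In the deposited table the authors give 1 FPKM value per group and a p-value, q-value and test score per gene, per the file headers. A deposited log2 ratio column runs past 100 in size and was treated as a score; ratios were formed instead from the FPKM values, with no pseudocount. Its title line speaks of infected cells, whereas the cells of the table name B16 and IFN, and these were followed.

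The planned model on library values could not be fitted, since 1 value per group was used, and the planned use of the authors' q took its place, with q under 0.05 as the call. Lengths (longest transcript) and coordinates came from GENCODE M21 (GRCm38), with a length for 98.2% of tested genes. Log2 ratios relative to genes of like length are the ratio minus the median of 1 of 20 length bins, a step tested on simulated data. Older symbols were matched through RefSeq synonyms. Counts by list are descriptions, without a test. The 10 genes and the gene lists were chosen with earlier results of these data known. From each list the 3 called genes of at least 1 FPKM with the largest change and the 2 genes of highest level without a call were to be named. A gene picked by this rule is not reported here. Python 3.11.15, pandas 2.3.3, numpy 2.4.6 and matplotlib 3.10.9 were used.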

Additional observations from a re-analysis of the deposited data

How the results depend on the processing

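Of the 10 genes, 6 higher and 0 lower were called by the authors' q under 0.05, and also at q under 0.01. The pseudocounts, the centring on the median of genes of at least 1 FPKM and the length step kept the authors' calls unchanged. Only the sign of the ratio was read again, which a pseudocount cannot change, and the 6 called genes stayed higher. Whether they would be called after the length step was not tested. With a change of at least 2-fold 5 were higher, since Zeb2, at a log2 ratio of 0.998504, was just under it. Over the genes that reach 1 FPKM in either group, adjusted again, 5 were higher, since Ngfr, Zeb1 and Cdh1 are outside that set. With a change of at least 2-fold the risen genes were 0 of 3 for the Ngfr partners, 2 of 7 for neural crest factors and 2 of 5 for EMT factors. They were 1 of 3 for the corepressor list (Ep300), 2 of 6 for cadherins and catenins and 1 of 7 for the TGF-beta pathway. They were 2 of 6 for undifferentiated markers, 1 of 5 for melanocyte genes and 1 of 2 for epithelial genes (also 1 at q under 0.01 and 1 over genes that reach 1 FPKM). The fallen were 1 of 2 for the Ngfr partners, 0 of 6 for corepressors, 1 of 5 for fibronectin receptors and matrix (3 of 5 at q under 0.01) 0 of 1 for the TGF-beta pathway and 0 of 1 for melanocyte genes. Of the fibroblast markers 1 of 3 rose at q under 0.01, and over genes that reach 1 FPKM 2 were higher and 0 lower, so that both falls rest on genes under 1 FPKM. The fall among leukocyte markers was lost at q under 0.01 and over genes that reach 1 FPKM. Relative to genes of like length 1 called gene among cadherins and catenins, Mllt4, was lower. No paired analysis was possible because the table holds 1 value per group, and leaving out a replicate was not run for the same reason. Depth is unknown, so the error of levels near 0 (Ngfr, Zeb1, Cdh1) is unknown too.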

Other observations

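Of the 2 tested leukocyte markers Itgam (chosen once its values were known) fell from 0.141 to 0.0130 FPKM and Lyz2 was not called at 1.65 and 1.30 FPKM.

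In the melanocyte list, set beside the 10 genes, 5 of 8 tested genes rose, 1 fell and 2 were not called. Over all tested genes 23.4% rose and 20.9% fell. The gene of the list that fell was Tyr (post hoc), with 142 FPKM in untreated and 107 FPKM in treated cells. Those without a call were Dct (2818 and 2331 FPKM) and Pmel (2871 and 2670 FPKM). Gpnmb rose 1.00 on the log2 scale, as much as Zeb2, and Sox10 rose 0.80. Mitf (post hoc) rose too, from 78.7 to 104.8 FPKM. Its log2 ratio of 0.41 was 0.18 relative to genes of like transcript length. Since Axl rose more, Mitf stood at 35.1 times the level of Axl in untreated cells and at 12.4 times after IFN-gamma.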
